A study of Mus musculus with 24 samples.

Results

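The proteasome genes described here are the protein-coding mouse genes whose symbol begins with Psma, Psmb, Psmc, Psmd, Psme, Psmf or Psmg and a digit. Taken by Ensembl ID, they were 50 of the 55487 gene IDs in the count table. The libraries came from macrophages, gated as F4/80+ among CD45+ CD11b+ cells and taken from orthotopic implants of the mouse colon carcinoma line MC38 in C57BL/6J mice. The cancer cells were either APC-WT or APC-KO, Apc being a tumor suppressor that restrains Wnt signalling, and the comparison asked how the macrophages of these tumors differ. There were 4 tumors, 2 per genotype, and each was sequenced as 6 libraries that the labels call replicates of a sample, 24 libraries in all. The genotype is that of the implanted cancer cells. The labels give no change in the Apc gene of the host, from which the macrophages come. They state no treatment, age or sex, and they do not say how Apc was inactivated, whether the knockout line was a single clone, or whether a tumor stood for 1 mouse.

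The proteasome is the protease that degrades proteins tagged with ubiquitin. Its 20S core is a barrel of 2 outer rings of alpha subunits (Psma1 to Psma7) and 2 inner rings of beta subunits (Psmb1 to Psmb7), of which Psmb5, Psmb6 and Psmb7 carry the active sites. The 19S cap binds ubiquitin and unfolds substrates with a ring of ATPases (Psmc1 to Psmc6) and a set of non-ATPase subunits (Psmd genes). Interferon induces Psmb8, Psmb9 and Psmb10, which replace Psmb5, Psmb6 and Psmb7 in newly built particles to form the immunoproteasome. It also induces Psme1 and Psme2, which form the PA28 alpha-beta activator. The immunoproteasome favours peptides that bind MHC class I, and macrophages and other antigen-presenting cells are known to express it.

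Total counts per library ran from 8895722 to 93568353, with every APC-KO library (at most 19328572) below every APC-WT library (at least 28018638). Loci resembling the satellite repeat gene Gm10800 took 37.9% and 38.5% of the counts in APC-KO tumors 1 and 2 against 1.32% and 7.05% in APC-WT tumors 1 and 2. The 3941 genes treated as expressed (10 CPM or more on average, and 10 or more times the background expected from 1974 odorant and pheromone receptor genes of the Olfr, Vmn1r and Vmn2r families) held 81.6%, 73.6%, 32.9% and 31.7% of the counts in the order APC-WT tumor 1, APC-WT tumor 2, APC-KO tumor 1, APC-KO tumor 2. This order is kept for all lists of 4 values. Levels are given as scaled CPM, a CPM whose denominator is the TMM-scaled total of expressed genes in place of all counts, so that directions are relative to expressed genes. Over all genes, on which scale the median expressed gene moved by -4.18 log2 units, 49 of the 50 proteasome genes lay below 0 in APC-KO and Psmb11 above it, and edgeR called 0 of them (44 at an unadjusted p under 0.05). That fit called 0 of all 53705 genes tested, so the absence of calls is not particular to proteasome genes. Of the macrophage markers (Adgre1, Csf1r, Itgam, Cd68, C1qa, C1qb, C1qc, Mertk) all 8 stood at 2 or more times their background in each tumor, and their summed level ranged over libraries from 20873 to 22465, 16739.6 to 17970.3, 16224 to 16862 and 18483 to 19089 scaled CPM. In the genotype fit with a length offset, described below, 5 of the 8 were lower in APC-KO, 0 higher and 3 not called. Their median log2 change was -1.01, and 24.4% of all genes were called lower. Without an offset 3 were lower and 0 higher, where 30.7% of all genes were lower. The summed level of 5 fibroblast markers was 1521 to 1671, 848 to 969, 249.8 to 337 and 462 to 499 against an expected background of 3.09, 22.2, 158 and 159, with 5, 5, 3 and 4 of 5 at 2 or more times background. That of 5 epithelial and carcinoma markers was 160.2 to 176, 514 to 549, 193 to 249 and 256 to 291 (all 5 above background in each tumor) and that of 6 neutrophil markers 284 to 304, 496 to 569.7, 408 to 464 and 208 to 246 (6, 5, 4 and 4 of 6). Sums reached at most 315 for 7 dendritic cell markers, 233 for 7 T and NK cell markers, 97.1 for 4 B cell markers and 314 for 4 endothelial markers, each in an APC-KO tumor where expected background was highest. No marker of these 8 lists was at 0 in any tumor. The part of other cells, of depth and of the background in the differences between genotypes was not tested.

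The 250 bases before the RefSeq start of 9 members hold a motif of interferon or oxidative stress responses (10 matches), and the sequence is shown for the beta ring genes among them and for Psmd4, a choice made after their values were seen. The motifs were the interferon-stimulated response element bound by IRF factors (core GAAANNGAA), the gamma-activated site of interferon-gamma signalling (TTCNNNGAA) and a core of the antioxidant response element bound by Nfe2l1 and Nfe2l2 (TGACNNNGC), searched on both strands. Among 32851 promoters of that length, 7.13%, 7.02% and 10.2% held them. The 42 members searched held them at 7.14%, 4.76% and 11.9%, near these shares, so the matches do not set the members apart. Of the 42 members with a RefSeq entry (GRCm38.p6), Psmb3, Psmd4 and Psmd9 held the first, Psmb8 and Psmg1 the second, and Psmb5, Psmb6, Psmc6, Psmd12 and Psmd9 the third. Each line reads 5′ to 3′ on the strand of the gene with up to 10 bases either side, the match is in capitals (as its reverse complement in Psmb3 and Psmd4), and these matches do not overlap each other.
Psmb8, gamma-activated site, chr17:34198088-34198116, plus strand: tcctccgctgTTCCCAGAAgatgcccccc
Psmb3, interferon-stimulated response element, chr11:97703262-97703290, plus strand: acagtgacttTTCACTTTCcgctttccat
Psmd4, interferon-stimulated response element, chr3:95042675-95042703, minus strand: taaccaacctTTCCATTTCtgtggcgcct
Psmb5, antioxidant response element core, chr14:54618024-54618052, minus strand: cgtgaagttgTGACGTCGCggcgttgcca
Psmb6, antioxidant response element core, chr11:70525338-70525356, plus strand: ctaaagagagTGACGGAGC
The Psmb6 match ends 1 base before the start and its window stops there. The match ends 89 bases before the start in Psmb8, 39 in Psmb5, 154 in Psmb3 and 71 in Psmd4. For Psmb8 this RefSeq start lies inside the GENCODE span of the gene (34197721 to 34201454), and so does the match. The matches of Psmd9, not shown, also lie inside its GENCODE span. Psmb9, Psmb10, Psme1 and Psme2 were not among the members with a match to any of the 3 motifs. The search covered 42 of the 50 members and only 250 bases before the RefSeq start. It therefore does not show that these genes lack the motifs.

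Per length of transcript, the interferon-induced genes were among the most abundant proteasome transcripts in every tumor. Psmb8, the induced counterpart of Psmb5, had 309, 319.7, 517 and 489.6 scaled CPM per kb of its principal isoform, the first place of 50 in both APC-WT tumors and in APC-KO tumor 2 and the second in APC-KO tumor 1. Psmb6, the caspase-like active subunit, had 201, 221, 562 and 453 and held the second place in the first 2 of these tumors and the first in APC-KO tumor 1. The median over the 5 induced genes was 175, 174, 349 and 325 per kb. It was 95.2, 96.3, 194 and 194 over the 7 constitutive beta genes and 79.1, 73.6, 101 and 100.4 over the 7 alpha genes. Psmb9 was the lowest induced gene, at 142, 143, 201 and 183 per kb and places 9, 10, 10 and 12. In APC-KO tumor 2 it lay below the constitutive beta median. The longest transcripts of Psmb9 and Psme1 are 2.13 and 1.79 times their principal isoforms, so their places depend on the isoform used. The 6 ATPases had medians of 86.4, 88.6, 125 and 119.5 and the 11 non-ATPases 63.8, 60.3, 85.2 and 75.957. Assembly chaperones were the least abundant class, with a median over 7 genes of 13.4, 15.7, 34.3 and 38.6 per kb, apart from the 3 genes of the other activators and the inhibitor at 10.97, 12.4, 16.8 and 15.7.

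Subunits of a ring enter the particle in equal number, and their transcripts did not stand at equal levels. In the alpha ring, Psma7 at 163, 179, 442 and 371 per kb lay above Psma3 at 26.9, 27.9, 50.4 and 52.7 in each tumor. That is a range of 6.07, 6.41, 8.79 and 7.04-fold within the ring. In the constitutive beta ring the range was 4.28, 5.12, 6.19 and 5.35-fold, from Psmb7 to Psmb6 in every tumor. The ATPases spanned 2.93, 3.25, 4.90 and 4.92-fold, with Psmc6 the lowest. The order of members differed between genotypes, and 3 of the moves are given as examples. Psmd2, the largest scaffold of the cap with Psmd1, went from place 11 and 9 in the APC-WT tumors to 28 and 29 in the APC-KO tumors. Psme3 went from 27 and 30 to 43 and 43, and Psmb4 from 24 and 25 to 14 and 14. These 3 genes were picked after their values were seen, and their ranks have no test. Levels per kb do not remove the relation between transcript length and genotype described below. The fitted length trend, APC-KO minus APC-WT, was -0.31 log2 for Psmd2, -0.22 for Psme3 and 0.89 for Psmb4, in the direction of each move. Its part in the moves was not tested.

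**Figure D1:**
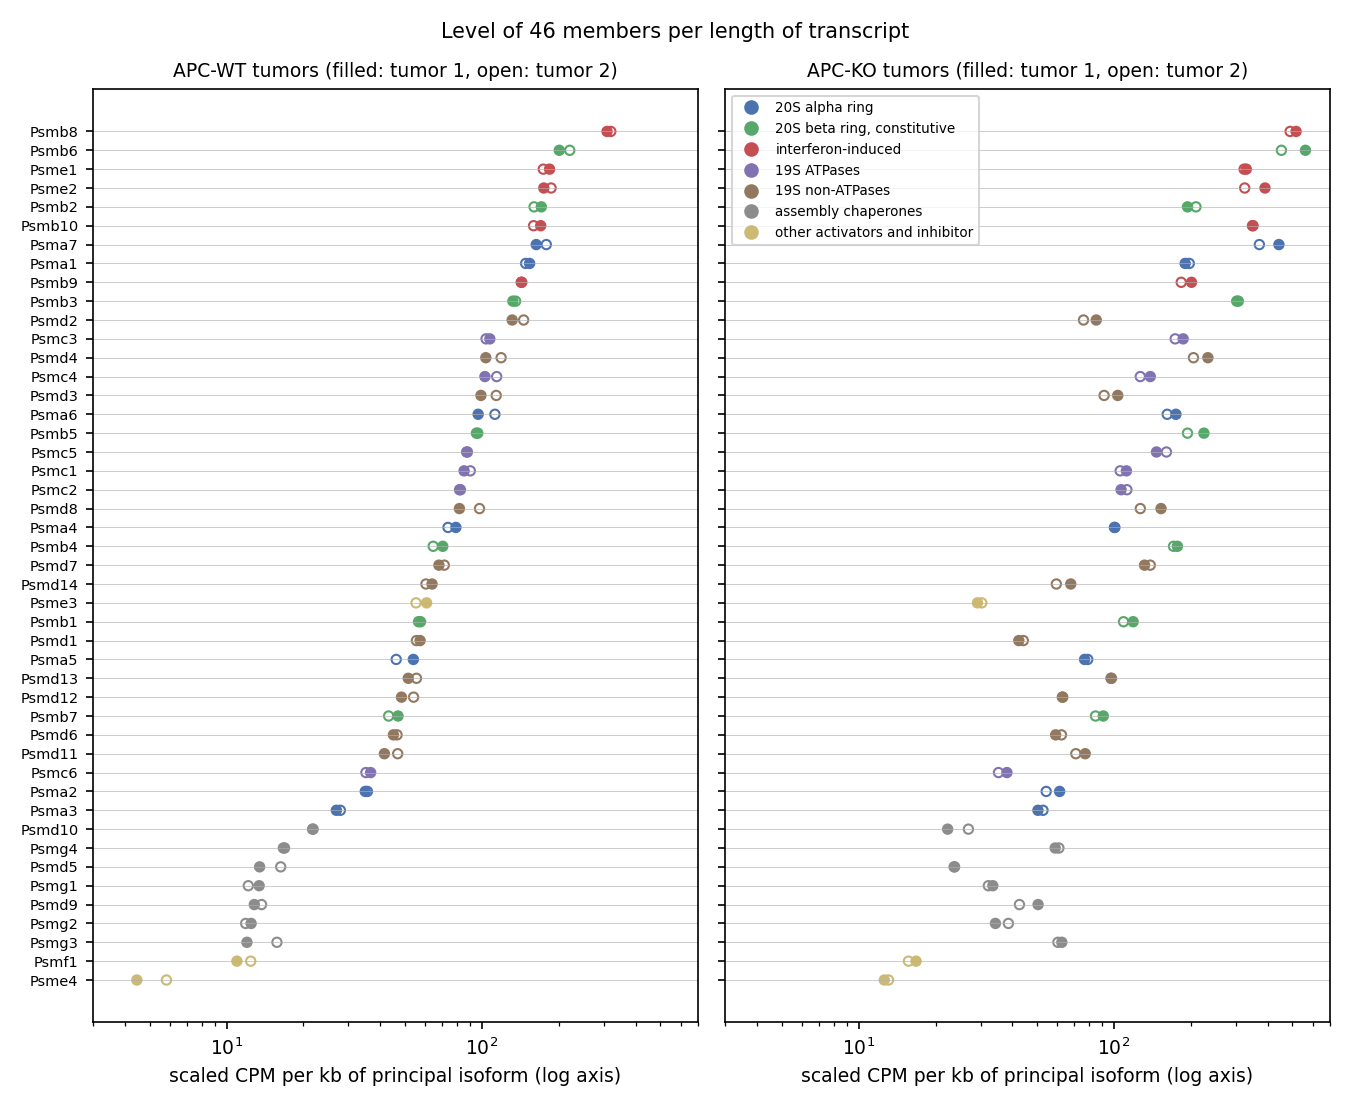
Scaled CPM per kb of principal isoform (x axes, log scale) for 46 members, ordered by APC-WT tumor 1, with tumor 1 filled and tumor 2 open in each panel and colors for classes. The 5 interferon-induced genes lie in the upper part of both panels and the assembly chaperones in the lower part, while Psmd2 and Psme3 lie left of their neighbours in the APC-KO panel.

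The 5 interferon-induced genes had more scaled CPM in each APC-KO library than in any APC-WT library when transcript length was left out of account. Of all 3938 genes tested, 28.1% did so on the same scale. Psmb8 (ENSMUSG00000024338, chromosome 17, 34197721 to 34201454, plus strand, GRCm38) had a lowest, median and highest library of 481, 504 and 522 scaled CPM in APC-WT tumor 1 and 506, 518 and 546 in APC-WT tumor 2. In APC-KO tumors 1 and 2 these were 786, 842 and 874, and 727, 794 and 865. Psmb9 (ENSMUSG00000096727, chromosome 17, 34181987 to 34187764, minus strand), which replaces Psmb6, lies beside it in the MHC region. Psmb9 had 183, 193 and 199.98 and 176, 194 and 207 in the APC-WT tumors and 249, 277 and 286 and 233, 242 and 272 in the APC-KO tumors. Neither gene had an APC-KO library at the level of an APC-WT library. Psmb10 (ENSMUSG00000031897, chromosome 8, 105935735 to 105938444, minus strand), which replaces Psmb7, had 214, 221 and 239.7 and 207, 209 and 210.01 against 431, 454 and 494 and 435, 444 and 514. Every APC-KO library of Psmb10 was above the highest APC-WT library. Psme1 (ENSMUSG00000022216, chromosome 14, 55578123 to 55581529, plus strand), the alpha chain of PA28, had 192, 206 and 214 and 183, 193 and 204 against 340.3, 374 and 383 and 338, 361 and 379. Psme2 (ENSMUSG00000079197, chromosome 14, 55587441 to 55591113, minus strand), its beta chain, had 159, 167 and 180.4 and 169.9, 178 and 193 against 336, 377 and 416 and 295, 309 and 330.1. The background expected for these 5 genes together was 0.978, 7.03, 49.9 and 50.3 scaled CPM, against summed levels of 1291 ± 42.995, 1296 ± 34.5, 2312 ± 46.5 and 2176 ± 75.2 (SD, n = 6 libraries).

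Psmb5, Psmb6 and Psmb7, the constitutive counterparts, were higher in APC-KO libraries too. Psmb5, the chymotrypsin-like active subunit, had 80.7, 85.5 and 90.6 and 82.6, 86.041 and 92.6 scaled CPM in APC-WT and 187, 200.3 and 220.4 and 155, 173 and 192 in APC-KO libraries (lowest, median and highest of each tumor). Psmb6 had 156, 159.9 and 165 and 169.5, 175 and 188 against 425, 439 and 489 and 329, 363 and 381. Psmb7, the trypsin-like active subunit, had 50.6, 54.1 and 57.8 and 45.9, 51.02 and 51.9 against 95.6, 104 and 117 and 89.5, 97.2 and 116. Genotypes did not overlap for any of these 3, as for 28.1% of all genes tested in this direction. Transcript length is again left out of account. With offsets for it, described below, their changes were -0.069, 0.15 and 1.25 (longest transcript) and -0.031, -0.041 and 0.14 (principal isoform). Of these only the 1.25 of Psmb7 was called. In scaled CPM Psme3, the subunit of the nuclear PA28 gamma activator, was lower in APC-KO libraries. It had 151, 163 and 168 and 141, 146 and 154 in APC-WT libraries and 72.2, 77.016 and 84.4 and 74.3, 80.1 and 88.4 in APC-KO libraries, again without overlap (28.4% of all genes in this direction). In bulk RNA of sorted cells, fewer cells of a type and less RNA per cell cannot be told apart.

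**Figure D2:**
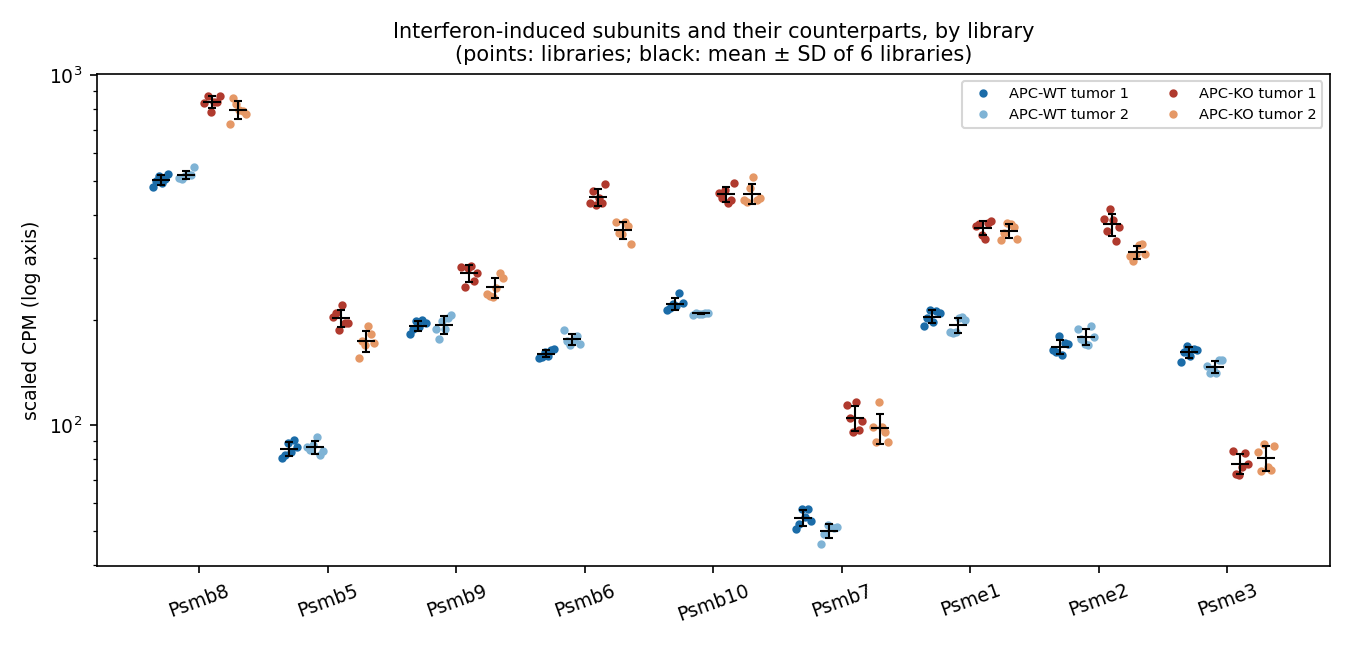
Scaled CPM (y axis, log scale) of the 5 interferon-induced genes, the 3 constitutive counterparts and Psme3 in each of 24 libraries, colored by tumor, with the mean and SD of 6 libraries in black. The APC-KO libraries lie above the APC-WT libraries for 8 of the 9 genes and below them for Psme3, on a scale relative to expressed genes and without a length offset.

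Ratios of 2 genes within a library do not depend on the scaling. Psmb8 had 5.89 ± 0.174, 6.02 ± 0.309, 4.16 ± 0.208 and 4.58 ± 0.311 times the counts of Psmb5 (SD, n = 6 libraries), a log2 difference of -0.44 between APC-KO and APC-WT tumors. Psmb9 had 1.20 ± 0.0206, 1.10 ± 0.0836, 0.608 ± 0.0540 and 0.688 ± 0.0666 times the counts of Psmb6, a difference of -0.84. For both pairs every APC-KO library lay below every APC-WT library. Psmb10 had 4.10 ± 0.147, 4.18 ± 0.180, 4.37 ± 0.466 and 4.70 ± 0.398 times the counts of Psmb7, with libraries that overlapped between genotypes and a difference of 0.13. The 3 induced genes together had 3.06 ± 0.0285, 2.95 ± 0.110, 2.08 ± 0.0687 and 2.38 ± 0.113 times the counts of their 3 counterparts, a difference of -0.43. The ratios of Psme1 and Psme2 to Psme3, which was itself lower in APC-KO libraries, differed in the other direction. Psme1 had 1.27 ± 0.0144, 1.32 ± 0.0658, 4.73 ± 0.303 and 4.48 ± 0.466 times the counts of Psme3 and Psme2 1.04 ± 0.0338, 1.22 ± 0.0449, 4.85 ± 0.570 and 3.89 ± 0.409 times, differences of 1.83 and 1.92 without overlap. The 2 chains of PA28 had a Psme1 to Psme2 ratio in raw counts of 1.22 ± 0.0315, 1.08 ± 0.0743, 0.983 ± 0.108 and 1.15 ± 0.0509, and relative to the 7 alpha genes they stood at 0.483 ± 0.00608, 0.475 ± 0.0127, 0.551 ± 0.0228 and 0.531 ± 0.0249. With 2 tumors against 2, an exact two-sided permutation test cannot go below p = 0.333, which each of the 5 single pairs reached.

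The 2 genes of a pair differ in transcript length, and the sign of the induced to constitutive difference depended on how length was treated. With the offset for the longest transcript, the fitted difference was 0.56 for Psmb8 against Psmb5, 0.58 for Psmb9 against Psmb6 and -0.88 for Psmb10 against Psmb7, the reverse of the raw ratios in all 3. With the offset for the principal isoform they were 0.42, -0.11 and 0.32. So Psmb8 to Psmb5 was lower in APC-KO in raw counts and higher with either offset, and the other 2 beta pairs took their other sign with the longest transcript alone. The activator pairs had 1 sign throughout. Psme1 against Psme3 differed by 1.46 and 0.58 under the 2 offsets, and Psme2 against Psme3 by 0.56 and 0.49, smaller than the raw values. Without an offset the single genes stood at 0.90 (Psme1), 0.99 (Psme2) and -0.93 (Psme3). With the principal isoform they stood at -0.0036, -0.10 and -0.59, so that only Psme3 was called there. The fitted difference between Psme1 and Psme2 was -0.10 without an offset, 0.90 with the longest transcript and 0.10 with the principal isoform.

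**Figure D3:**
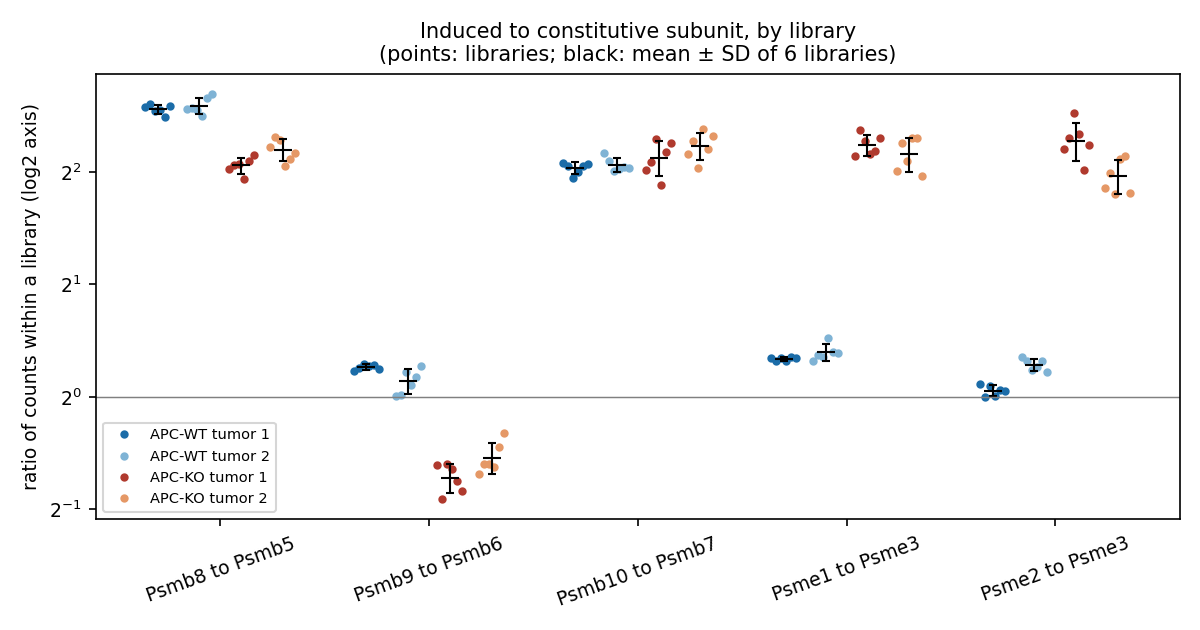
Ratio of the counts of an induced gene to those of its constitutive counterpart, or of Psme1 and Psme2 to Psme3 (y axis, log2 scale), in each of 24 libraries, with the mean and SD of 6 libraries per tumor in black and a line at equal counts. Psmb8 to Psmb5 and Psmb9 to Psmb6 are lower in all APC-KO libraries, Psmb10 to Psmb7 overlaps, and both ratios to Psme3 are higher in all APC-KO libraries; the first 3 pairs change sign under an offset for transcript length.

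Transcript length entered every comparison of genotypes. Without an offset, the log2 change of 3938 expressed genes had a rank correlation of -0.567 with the length of their longest transcript, and that of the 40 proteasome genes among them -0.354. With the length of the principal isoform it was -0.607 over 3769 genes and -0.525 over the 40 members. These are descriptions across genes of the same libraries, which are not independent. Shorter transcripts thus had higher values in APC-KO, and with a median longest transcript of 1705 bases against 2557 for all genes tested, proteasome genes were on the short side. The fit used for the counts below therefore carried an offset for the length of the longest transcript (the length-adjusted fit). After that offset the rank correlation of the change with longest transcript length was -0.015 over all genes but 0.53 over the 40 members, and with the principal isoform's offset and length -0.022 and 0.41. The offset thus left a relation to length of the opposite sign among the proteasome genes. For 7 members (Psmb7, Psmb9, Psmb3, Psmc2, Psme1, Psma7 and Psmd4) the longest annotated transcript was at least 1.5 times the principal isoform, 17.5% of members against 9.34% of all genes, and their log2 change was lower by a median of 0.75 with the principal isoform in its place. For the members called, values under no offset and under both offsets are therefore given side by side.

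In the length-adjusted fit, 17 of the 40 proteasome genes tested were higher in APC-KO, 7 were lower and 16 did not pass edgeR's quasi-likelihood test at an adjusted p of 0.05. Adjusted p-values are of this test with Benjamini-Hochberg adjustment over all genes tested, on 2 tumor sums against 2, and log2 changes are APC-KO minus APC-WT. The background was a called share of 49.2% of all 3938 genes tested, 24.9% higher and 24.4% lower. The members' median log2 change was 0.19 against -0.029 for all genes. Without an offset 31 were higher and 3 lower (background 63.4%, 32.7% higher and 30.7% lower), with a median of 0.71 against 0.0042. With the principal isoform 9 were higher and 5 lower (background 45.4%, 23.4% and 22.0%), with a median of 0.044 against -0.0097. Scaled CPM without an offset did not overlap between genotypes for 31 members that were higher and 3 that were lower, where 28.1% and 28.4% of all genes did so. Leaving out APC-KO tumor 1 gave 8 higher and 1 lower (background 20.9%), leaving out APC-KO tumor 2 gave 9 and 1 (20.6%), leaving out APC-WT tumor 1 gave 15 and 4 (45.3%) and leaving out APC-WT tumor 2 gave 14 and 6 (48.9%). With the limits for expressed genes lowered from 10 to 5, 46 members were tested and the split was 12 and 12 (background 57.4%, 27.4% higher and 30.0% lower). On that scale the median of the genes shared by both fits lay at -0.44 relative to the length-adjusted fit, and Psma7 (0.40), Psmb3 (0.33), Psmb4 (0.18), Psmb8 (0.17), Psmb9 (0.27), Psmc3 (0.18), Psmd7 (0.18), Psmd8 (0.19) and Psme1 (0.42) were no longer called.

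A total of 9 members were called in 1 direction without an offset, with either length offset, with length and GC content together (16 higher and 6 lower, background 50.1%) and after subtracting the expected background (18 and 6, background 48.0%). Psma2, Psma3, Psmb1, Psmb4, Psmc3, Psmd7, Psmd11 and Psmd13 were higher in APC-KO under all 5 choices (background 13.8% of 3769 genes) and Psme3 was lower (background 16.3%). None of the 5 interferon-induced genes was among them. With limits of 5, which is outside these 5 choices, Psmb4, Psmc3 and Psmd7 were not called (0.18 each). Of the 24 calls of the length-adjusted fit, 9 were also made with each of the 4 tumors left out in turn (background 16.9%), namely Psma2, Psma3, Psmb1, Psmb2, Psmb7, Psmc2, Psmd4, Psmd11 and Psmd13. Psma2, Psma3, Psmb1, Psmd11 and Psmd13 met both conditions (background 14.4%). Over the 5 induced genes, 3 were higher and 2 did not pass in the length-adjusted fit (24.9% of all genes higher). Without an offset 5 were higher (32.7%), and 1 was higher with the principal isoform (23.4%). Psmb8 changed by 0.49 (SE 0.13, adjusted p = 0.0372) in the length-adjusted fit, 0.70 (SE 0.14, adjusted p = 0.0112) without an offset and 0.39 (SE 0.13, adjusted p = 0.0687) with the principal isoform. Psmb8 was not called without APC-WT tumor 1 (0.49), APC-WT tumor 2 (0.49), APC-KO tumor 1 (0.45) or APC-KO tumor 2 (0.52). Psmb10 went from 0.37 (SE 0.14, adjusted p = 0.0808) to 1.11 (SE 0.13, adjusted p = 0.00233) and 0.46 (SE 0.13, adjusted p = 0.0452) in the same order. Psmb9 and Psme1 were called in the length-adjusted fit at 0.73 (SE 0.11, adjusted p = 0.00883) and 0.75 (SE 0.12, adjusted p = 0.00980). Without an offset they were called at 0.45 and 0.90, and with the principal isoform they stood at -0.15 and -0.0036 and were not called. Psmb9 was not called without APC-KO tumor 1 (0.67) or APC-KO tumor 2 (0.79). Psme1 was not called without APC-KO tumor 1 (0.73) or APC-KO tumor 2 (0.77). Psme2 was at -0.15 and -0.10 with the 2 offsets, neither called, and at 0.99 (SE 0.14, adjusted p = 0.00438) without one.

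**Figure D4:**
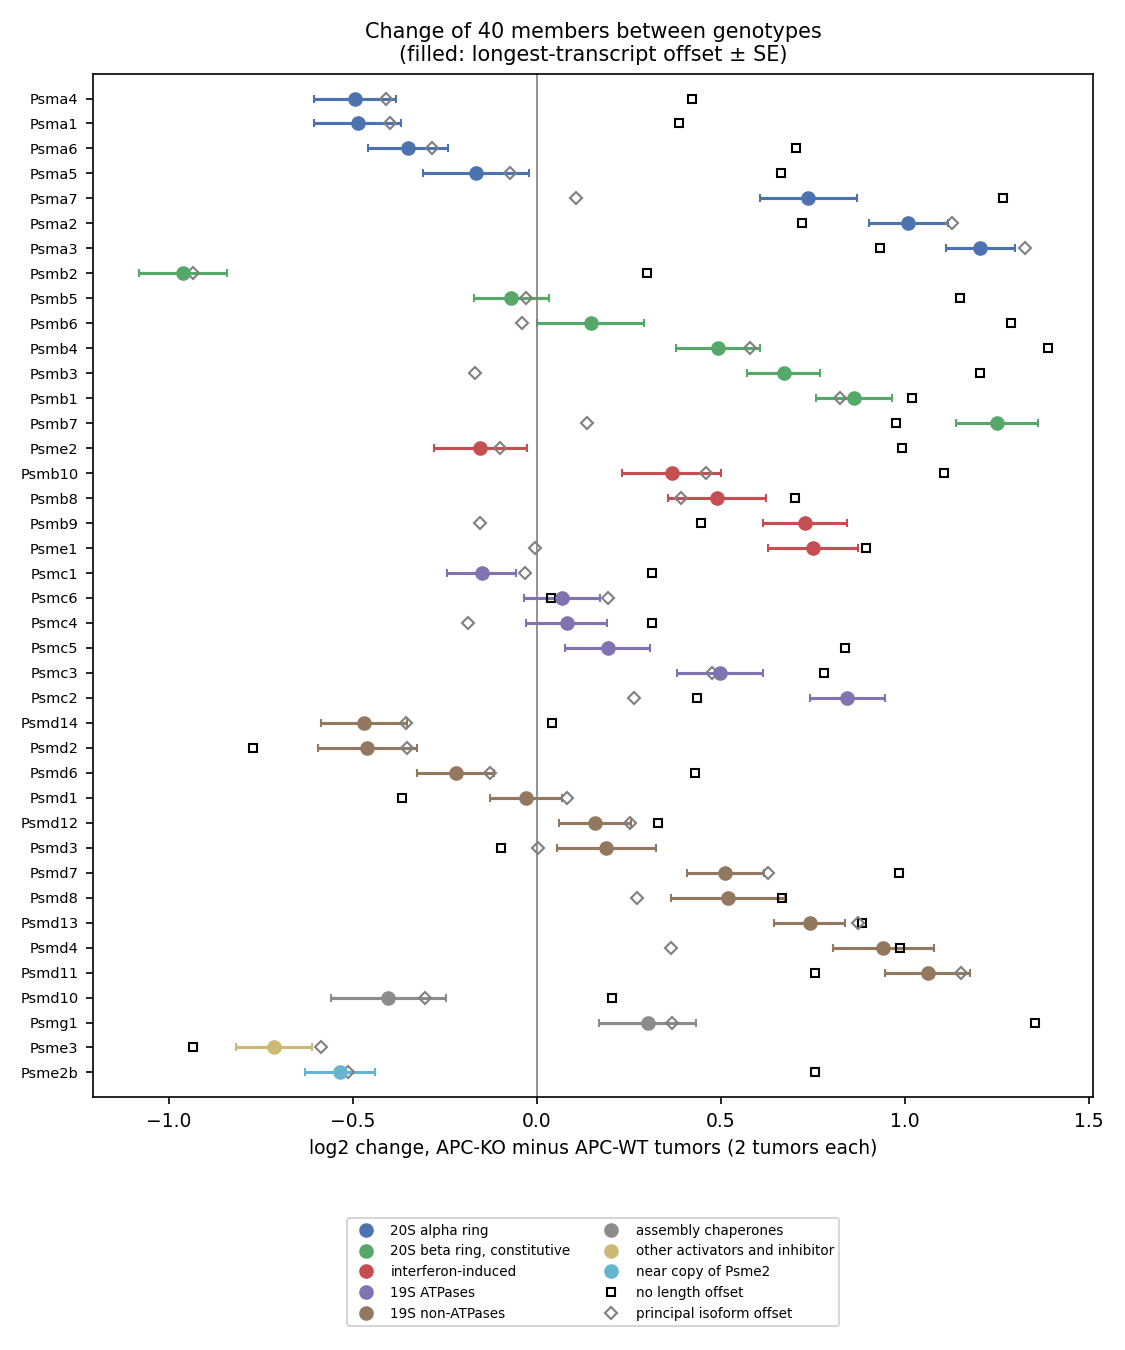
Log2 change of the 40 members tested between 2 APC-KO and 2 APC-WT tumors (x axis), grouped and colored by class, with the longest-transcript offset (filled, bars are SE), no offset (squares) and the principal isoform offset (diamonds). Squares lie right of 0 for 36 of 40 members, filled points for 25 and diamonds for 21, and Psme3 lies left of 0 under all 3.

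The 7 alpha ring genes build the gate and outer rings of the core. In the length-adjusted fit 3 were higher, 2 lower and 2 did not pass (background 49.2% of all genes called). Without an offset 7 were higher (background 32.7%). Psma3 had 76.6 ± 3.76, 79.4 ± 5.44, 143 ± 2.44 and 150.01 ± 13.8 scaled CPM (SD, n = 6 libraries) and rose by 1.20 (SE 0.095, adjusted p = 0.00295), 0.93 without an offset and 1.33 with the principal isoform. Psma2 had 102 ± 5.20, 104 ± 3.49, 178 ± 15.9 and 158 ± 10.1 and rose by 1.01 (SE 0.11, adjusted p = 0.00404), 0.72 without an offset and 1.13 with the principal isoform. Both have long transcripts for this ring (2846 and 2911 bases), and no library of a genotype overlapped the other (28.1% of all genes in this direction). Psma7 had 149 ± 4.25, 163 ± 2.82, 404 ± 12.036 and 339 ± 18.6, with no overlap between genotypes, and a change of 0.74 (SE 0.13, adjusted p = 0.0122) that was 1.27 without an offset and 0.11 (adjusted p = 0.540) with the principal isoform. Psma4 had 92.1 ± 4.12, 85.8 ± 6.06, 117 ± 4.69 and 117 ± 10.995 and Psma1 185 ± 7.62, 178 ± 6.9979, 228 ± 13.7 and 237 ± 9.54. Both were higher in scaled CPM, and both were called lower with the offset, at -0.49 (SE 0.11, adjusted p = 0.0221) and -0.49 (SE 0.12, adjusted p = 0.0270). Without an offset both were called higher, at 0.42 and 0.39, and with the principal isoform both were lower, at -0.41 and -0.40. Psma4 was not called without APC-WT tumor 1 (-0.40), APC-KO tumor 1 (-0.47) or APC-KO tumor 2 (-0.51). Psma1 was not called without APC-WT tumor 1 (-0.42), APC-KO tumor 1 (-0.45) or APC-KO tumor 2 (-0.53). Psma7 was not called without APC-KO tumor 1 (0.63). Psma6 had 101, 117, 182 and 168 and Psma5 66.7, 57.2, 95.021 and 97.8, with changes of -0.35 and -0.16 that did not pass.

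The 7 constitutive beta genes were split in the length-adjusted fit, with 4 higher, 1 lower and 2 not called (background 49.2% of all genes called). Psmb1, a structural subunit without an active site, had 101 ± 4.47, 99.2 ± 3.57, 209 ± 8.14 and 192 ± 9.73 scaled CPM and rose by 0.86 (SE 0.10, adjusted p = 0.00500), 1.02 without an offset and 0.82 with the principal isoform. Psmb4, another structural subunit, had 83.1 ± 3.19, 76.2 ± 3.85, 209.5 ± 9.58 and 202 ± 7.62 and rose by 0.49 (SE 0.11, adjusted p = 0.0237) with the offset and by 1.39 (SE 0.11, adjusted p = 0.00113) without it, and by 0.58 with the principal isoform. Neither gene's libraries overlapped between genotypes (28.1% of all genes in this direction). Psmb4 was not called without APC-WT tumor 2 (0.40), APC-KO tumor 1 (0.49) or APC-KO tumor 2 (0.50). Psmb7 was called at 1.25 (SE 0.11, adjusted p = 0.00327) with its longest transcript of 2849 bases and stood at 0.14 (adjusted p = 0.360) with its principal isoform of 1160 bases and at 0.97 without an offset. Psmb3 had 101, 104, 235 and 232 and likewise went from 0.67 (adjusted p = 0.00785) to -0.17 (adjusted p = 0.218), with 1.20 without an offset. Psmb3 was not called without APC-KO tumor 1 (0.68) or APC-KO tumor 2 (0.66). Psmb5 and Psmb6 were at -0.069 and 0.15 in the length-adjusted fit, both not called, and at 1.15 and 1.29 without an offset, both called. Psmb2 had 147 ± 5.59, 137 ± 4.01, 167 ± 12.2 and 179.9 ± 22.6, with overlapping libraries, and fell by 0.96 (SE 0.12, adjusted p = 0.00530) with the offset. Without one it stood at 0.30 (SE 0.11, adjusted p = 0.0605), and with the principal isoform it was called at -0.93.

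The 6 ATPases unfold substrates and open the core. In the length-adjusted fit 2 were higher, 0 lower and 4 not called (background 49.2% of all genes called). Psmc3 had 176 ± 3.04, 169.8 ± 9.11, 305 ± 16.5 and 284 ± 7.52 scaled CPM and rose by 0.50 (SE 0.12, adjusted p = 0.0246), by 0.78 without an offset and by 0.47 with the principal isoform. Psmc3 was not called without APC-WT tumor 2 (0.45), APC-KO tumor 1 (0.46) or APC-KO tumor 2 (0.53). Psmc2 had 146 ± 4.28, 147 ± 5.06, 190.2 ± 10.9 and 201 ± 19.2 and was called at 0.84 (SE 0.10, adjusted p = 0.00509), but stood at 0.26 (adjusted p = 0.0963) with the principal isoform and at 0.44 without an offset. Psmc5 had 115, 115, 193 and 211 and Psmc1 135, 143, 178 and 168, at changes of 0.19 and -0.15 that were not called. Psmc6 had 81.9, 78.5, 85.1 and 78.8 with overlapping libraries and a change of 0.068 in the length-adjusted fit, 0.038 without an offset and 0.19 with the principal isoform, all not called. Psmc4 had 148, 164, 199.7 and 182 and 0.081 in the length-adjusted fit.

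Of the 11 non-ATPase subunits of the cap, 5 were higher, 2 lower and 4 not called in the length-adjusted fit (background 49.2%). Without an offset 7 were higher and 2 lower (background 32.7% and 30.7%). Psmd11, a scaffold subunit of the lid, had 118 ± 5.20, 133 ± 7.05, 219.6 ± 16.1 and 202 ± 9.15 scaled CPM and rose by 1.06 (SE 0.12, adjusted p = 0.00419), 0.76 without an offset and 1.15 with the principal isoform. Psmd13, another lid subunit, had 102 ± 4.57, 110.2 ± 5.02, 194 ± 17.5 and 194 ± 8.84 and rose by 0.74 (SE 0.10, adjusted p = 0.00589), 0.88 without an offset and 0.87 with the principal isoform. Psmd7, the partner of the deubiquitinase Psmd14, had 107, 113, 208 and 219 and rose by 0.51 (SE 0.10, adjusted p = 0.0171), 0.98 without an offset and 0.63 with the principal isoform. These 3 kept their call under all 5 choices, but Psmd7 was not called with limits of 5 (0.18). Psmd7 was not called without APC-KO tumor 1 (0.57) or APC-KO tumor 2 (0.45). Psmd4, a ubiquitin receptor, had 138 ± 4.39, 158 ± 6.17, 311 ± 15.2 and 273 ± 13.1 and was called at 0.94 (SE 0.14, adjusted p = 0.00742), with 0.37 (adjusted p = 0.0664) for the principal isoform and 0.99 without an offset. Psmd14, which removes ubiquitin chains at the entrance, had 98.3 ± 2.04, 92.996 ± 4.34, 104 ± 14.5 and 91.6 ± 11.6 with overlapping libraries and was called lower at -0.47 (SE 0.12, adjusted p = 0.0292), while it stood at 0.040 without an offset and at -0.36 (adjusted p = 0.0609) with the principal isoform. Psmd14 was not called without APC-WT tumor 1 (-0.38), APC-KO tumor 1 (-0.54) or APC-KO tumor 2 (-0.40). With GC content in the offset it was not called either, at -0.36. Psmd2, which with Psmd1 forms the toroid scaffold, had 389 ± 15.1, 431 ± 15.7, 252 ± 22.6 and 225 ± 11.3, below APC-WT in every APC-KO library (28.4% of all genes). Psmd2 fell by 0.46 (SE 0.13, adjusted p = 0.0443) in the length-adjusted fit and by 0.77 (adjusted p = 0.00838) without an offset, and stood at -0.35 (adjusted p = 0.0876) with the principal isoform and at -0.30 (adjusted p = 0.138) after subtracting the background. Psmd1 had 178, 172, 132 and 137 and was called lower without an offset, at -0.37 (adjusted p = 0.0273), against -0.029 in the length-adjusted fit. Psmd2 was not called without APC-WT tumor 1 (-0.52), APC-WT tumor 2 (-0.39), APC-KO tumor 1 (-0.53) or APC-KO tumor 2 (-0.39). Psmd8 had 126, 151, 235 and 195 and was called at 0.52 (adjusted p = 0.0473) and at 0.67 without an offset. It was not called with the principal isoform, at 0.27 (adjusted p = 0.174), or with length and GC content, at 0.48 (adjusted p = 0.0571). Psmd8 was not called without APC-WT tumor 1 (0.41), APC-KO tumor 1 (0.37) or APC-KO tumor 2 (0.65). Psmd3, Psmd6 and Psmd12 had 0.19, -0.22 and 0.16 and were not called.

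Assembly chaperones, which bring the core (Psmg1 to Psmg4) and the base of the cap (Psmd5, Psmd9, Psmd10) together, were mostly under 10 times their expected background and so not tested. Psmd10 and Psmg1 passed the limits and 0 of these 2 was called in the length-adjusted fit, where 49.2% of all genes were. Psmd10 had 31.2 ± 1.37, 31.037 ± 1.98, 31.9 ± 3.34 and 38.5 ± 6.48 scaled CPM, with overlapping libraries and a change of -0.40 (SE 0.16, adjusted p = 0.0890). Psmg1 had 13.999 ± 0.757, 12.7 ± 1.58, 34.995 ± 6.14 and 33.6 ± 7.02 against an expected background of 0.103, 0.743, 5.28 and 5.31, with a change of 0.30 (SE 0.13, adjusted p = 0.120) and 1.35 (SE 0.12, adjusted p = 0.00140) without an offset. The other 5 stood under the limits. Psmg2 had 13.2, 12.6, 36.3 and 40.9 against a background of 0.134, 0.961, 6.82 and 6.87, Psmg3 10.6, 13.9, 55.2 and 53.2 against 0.223, 1.60, 11.4 and 11.4 and Psmg4 9.36, 9.26, 32.7 and 33.8 against 0.0427, 0.307, 2.18 and 2.19. Psmd5 had 59.2, 71.6, 104 and 104 against 0.556, 3.9981, 28.4 and 28.6 and Psmd9 33.3, 35.6, 131 and 111 against 0.558, 4.01, 28.5 and 28.6. Levels of these 5 were higher in APC-KO libraries together with their background. With limits of 5 all 7 chaperones were tested, in a fit that called 57.4% of all genes. Psmd5 (0.71, adjusted p = 0.00975), Psmd9 (1.57, adjusted p = 0.00159) and Psmg3 (1.87, adjusted p = 0.00164) were called higher and Psmd10 (-0.75, adjusted p = 0.0140) lower. Psmg1 (0.026), Psmg2 (0.51) and Psmg4 (0.10) were not called.

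The activators outside PA28 alpha-beta differed from it. Psme3 (ENSMUSG00000078652, chromosome 11, 101316213 to 101323537, plus strand) fell by 0.71 (SE 0.10, adjusted p = 0.00746) in the length-adjusted fit, by 0.93 (adjusted p = 0.00209) without an offset and by 0.59 (adjusted p = 0.0134) with the principal isoform. It stood between -0.84 and -0.64 over the 4 combinations of 1 APC-KO with 1 APC-WT tumor. Psme3 was not called without APC-KO tumor 1 (-0.69) or APC-KO tumor 2 (-0.74). Psme4, the PA200 activator, had 28.9 ± 8.72, 37.7 ± 11.6, 81.8 ± 6.98 and 84.9 ± 7.14 scaled CPM against a background of 0.645, 4.64, 32.9 and 33.1. Psmf1, the PI31 regulator, had 41.8 ± 1.36, 47.3 ± 1.54, 63.9 ± 11.6 and 59.7 ± 6.32 against 0.495, 3.56, 25.3 and 25.5. Both were under the limits of 10. With limits of 5 Psmf1 was called at 0.50 (adjusted p = 0.0170), and Psme4 was not tested.

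The rule also takes 4 genes that are not subunits of the usual particle. Psma8 and Psmb11 are the testis-specific and thymus-specific forms, and Psmc3ip is a meiotic recombination factor. They had 2.07, 3.85, 14.5 and 13.2, 1.03, 5.82, 62.7 and 61.9 and 3.79, 4.13, 21.7 and 25.3 scaled CPM against backgrounds of 0.192, 1.38, 9.79 and 9.86, 0.369, 2.65, 18.8 and 18.9 and 0.140, 1.01, 7.14 and 7.19, and none was tested. Psme2b is an intronless near copy of Psme2, so that reads of the 2 may have been split by the counting and both values are uncertain. Psme2b had 74.8 ± 3.20, 73.2 ± 4.89, 131 ± 19.6 and 118 ± 7.64, higher in every APC-KO library (28.1% of all genes). It was called lower with the offset at -0.53 (SE 0.10, adjusted p = 0.0121) and higher without an offset at 0.76 (SE 0.10, adjusted p = 0.00345), with -0.51 for the principal isoform. Psme2b was not called without APC-KO tumor 1 (-0.55) or APC-KO tumor 2 (-0.52).

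Genes of the pathway outside the rule were called in both directions, to be read against the background of 49.2%. Of 6 tested regulators of proteasome gene transcription, 3 were lower, 1 (Irf2, at 0.32) was higher and 2 were not called in the length-adjusted fit. Irf1, an interferon-induced factor that drives Psmb8 and Psmb9, had 987, 1062, 477 and 449 scaled CPM and fell by 1.16 (SE 0.14, adjusted p = 0.00500). Nfe2l2, the oxidative stress factor, had 851, 753, 305 and 309.5 and fell by 1.21 (SE 0.15, adjusted p = 0.00499). Nlrc5, the transactivator of MHC class I genes, had 327, 277, 138 and 138 and fell by 0.70 (SE 0.11, adjusted p = 0.00857). These 3 were lower in every APC-KO library, as were 28.4% of all genes tested, and were called without an offset and with either offset. Nlrc5 was not called without APC-KO tumor 1 (-0.68) or APC-KO tumor 2 (-0.72). Irf2 stood at -0.16 without an offset and 0.13 with the principal isoform, both not called. Irf2 was not called without APC-WT tumor 1 (0.29), APC-WT tumor 2 (0.35), APC-KO tumor 1 (0.30) or APC-KO tumor 2 (0.33). Of 11 tested genes of peptide trimming and MHC class I loading, 0 were higher, 6 lower (Tap1, Tap2, Tapbp, Tapbpl, B2m and H2-D1) and 5 not called, a called share of 54.5% against 49.2% of all genes. With the principal isoform 3 were lower, and after subtracting the background 2 were (Tapbp and B2m), a called share of 18.2% against 48.0%. Tap1 and Tap2, the chains of the peptide transporter, had 771, 871, 413 and 343 and 569, 620.3, 319 and 265 scaled CPM and fell by 0.63 (adjusted p = 0.0339) and 0.60 (adjusted p = 0.0332). Tap1 was not called without APC-WT tumor 2 (-0.54), APC-KO tumor 1 (-0.77) or APC-KO tumor 2 (-0.51). Tap2 was not called without APC-WT tumor 2 (-0.54), APC-KO tumor 1 (-0.74) or APC-KO tumor 2 (-0.47). Tapbpl, a peptide editor, fell by 0.39 (adjusted p = 0.0451). Tapbpl was not called without APC-WT tumor 1 (-0.36), APC-WT tumor 2 (-0.43), APC-KO tumor 1 (-0.30) or APC-KO tumor 2 (-0.49). B2m, the light chain of MHC class I, had 3587, 2986, 2337 and 2278 and fell by 1.75 (SE 0.18, adjusted p = 0.00381), and stood at -0.49 (adjusted p = 0.0623) without an offset. Tapbp, which holds empty class I molecules at the peptide transporter, had 1747, 1633, 649 and 672 and fell by 1.04 (SE 0.14, adjusted p = 0.00657). H2-D1, a class I heavy chain, had 8781, 8545, 5941 and 5547 and fell by 0.63 (adjusted p = 0.0295). H2-D1 was not called without APC-WT tumor 1 (-0.60), APC-WT tumor 2 (-0.66), APC-KO tumor 1 (-0.69) or APC-KO tumor 2 (-0.58). Tapbp was not called without APC-KO tumor 1 (-1.01) or APC-KO tumor 2 (-1.08).

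Of the 4 remaining subunits and assembly factors, 3 were tested and 3 were higher in APC-KO, where Akirin2, which brings proteasomes into the nucleus, was under the limits. Pomp, the chaperone that matures the beta ring, had 107 ± 3.65, 109 ± 2.84, 369.8 ± 26.9 and 338 ± 34.1 scaled CPM and rose by 2.2 (SE 0.12, adjusted p = 0.00259), 1.73 without an offset and 1.38 with the principal isoform. Sem1, the smallest lid subunit, had 54.6 ± 3.01, 54.9 ± 5.03, 198 ± 9.83 and 174 ± 12.999 and rose by 1.83 (SE 0.12, adjusted p = 0.00266), 1.79 and 1.32 in the same order. Adrm1, the ubiquitin receptor Rpn13, had 167, 190.5, 257 and 234 and was called at 0.96 (adjusted p = 0.00701), but stood at 0.080 (adjusted p = 0.607) with the principal isoform. Of 6 deubiquitinases and ligases of the proteasome 1 passed the limits. Uchl5, the deubiquitinase held by Adrm1, had 40.4, 39.6, 66.8 and 61.6 and was called at 0.41 (adjusted p = 0.0322). Uchl5 was not called without APC-WT tumor 1 (0.45), APC-WT tumor 2 (0.38), APC-KO tumor 1 (0.38) or APC-KO tumor 2 (0.44). Of 3 genes of ubiquitin and its activation, 1 (Rps27a) was higher and 2 (Uba1 and Ubb) lower. Rps27a, a ubiquitin and ribosomal protein fusion gene, had 32.5, 26.5, 136 and 145 and rose by 1.09 (SE 0.16, adjusted p = 0.00719). Uba1, the main ubiquitin-activating enzyme, had 362, 376, 130.5 and 131 and fell by 1.00 (SE 0.11, adjusted p = 0.00438). Of 8 tested shuttle factors and p97 partners, 0 were higher and 2 lower. These were Ubqln1 at 226, 219, 74.7 and 84.8 with a fall of 1.01 (adjusted p = 0.00381) and Nploc4 at 163, 165, 74.6 and 88.3 with a fall of 0.51 (adjusted p = 0.0259), while Ddi2, at -0.22, was not called. Ubb, a polyubiquitin gene, was called at -0.50 (adjusted p = 0.0463). Ubb stood at 0.037 without an offset and at -0.40 with the principal isoform, both not called. Ubb was not called without APC-WT tumor 1 (-0.57), APC-WT tumor 2 (-0.44), APC-KO tumor 1 (-0.53) or APC-KO tumor 2 (-0.48). Nploc4 stood at -0.39 with the principal isoform, not called. Nploc4 was not called without APC-WT tumor 2 (-0.49), APC-KO tumor 1 (-0.40) or APC-KO tumor 2 (-0.65).

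Within a genotype, the proteasome genes of the 2 tumors were close to each other. Between APC-WT tumors 2 and 1, 8 of the 40 members tested were higher, 8 lower and 24 not called (background 47.6%, 19.6% higher and 28.1% lower), by an edgeR test whose p-values measure the spread between libraries only. Between APC-KO tumors 2 and 1, 4 were higher and 10 lower (background 34.9%, 19.2% and 15.7%). No member changed by 2-fold or more, where 2.41% and 1.07% of all genes were called at that size. The largest change was 0.30 in size in APC-WT, for Psma5 at -0.30 (adjusted p = 0.00160), and 0.32 in APC-KO, for Psmd10 at 0.32 (adjusted p = 0.00767). Psmd8 was higher in APC-WT tumor 2 than in tumor 1 by 0.23 and lower in APC-KO tumor 2 than in tumor 1, at -0.26. Of the induced genes, Psmb10 was lower in APC-WT tumor 2, at -0.18 (adjusted p = 0.000601), as was Psme1, at -0.11 (adjusted p = 0.0318). Psme2 was lower in APC-KO tumor 2, at -0.19 (adjusted p = 0.00297), and Psmb8 and Psmb9 were called in neither genotype.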

How the data were processed

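Liberase-digested tumors were freed of red cells and live CD45+ CD11b+ F4/80+ cells were sorted, per the labels' protocols, and 6 libraries per sample were made from total RNA by an ultra low input protocol (Illumina Nextera XT). The submitters' processing notes list bcl2fastq 2.20.0, HISAT2, StringTie and mm9. Their roles and settings, strand and annotation version are not given in the sources used here. The authors deposited whole-number counts, unnormalized, with 55487 Ensembl IDs and 24 libraries, and no column was left out. GENCODE M21 gave symbol, position and transcript length by ID for 55227 of them, so coordinates refer to GRCm38 while the notes name another build. Promoters are RefSeq's (GRCm38.p6).

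Tools were R 4.3.3 (edgeR 4.0.16, limma 3.58.1, DESeq2 1.42.0) and Python 3.11.15 (numpy 2.4.6, pandas 2.3.3, scipy 1.17.1, matplotlib 3.10.9). For genotype, each tumor's 6 libraries were added up from the deposited counts, and the 4 sums (2 against 2) entered edgeR's quasi-likelihood test over 3938 expressed genes with TMM, Benjamini-Hochberg adjustment over all of them and a threshold of 0.05. A loess curve (span 0.5) of a tumor's log2 level against log2 longest transcript length served as offset, which also absorbs the size factor. Left out were 12 satellite-like loci (a share of at least 0.3 of 15-mers in common with Gm10800) and genes without a length. SEs were derived by dividing a log2 change by the root of its F statistic, and levels per kb use the APPRIS principal isoform. In fits without 1 tumor the lone tumor of its genotype is assumed to vary like the other 2. Within a genotype, tumors were compared over 24 libraries with a mean per tumor. The labels do not say that a tumor's libraries hold separate cells, so p-values over them measure only a spread that may be technical. The fits were also run on simulated counts with known changes, only as a check of the code. Those counts held at most a straight length trend, so they do not show how well the offset suits these data.

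The members, the gene lists and the tests were chosen with earlier results of these data known. Named by rule were the 5 induced genes, their counterparts, Psme3, Psme4 and Psmf1, in each other class up to 3 members with the smallest p and the largest change each way, and in each list outside the rule up to 3 with the smallest p. The other members, and Irf2, Ubb, Tap1, Tap2 and Tapbpl, were named after their values were seen. Some genes of the lists outside the rule are not reported here. Alternatives were no offset, the principal isoform's length (added after seeing the data), length with GC content, limits of 5, all genes, subtracted background, DESeq2, limma-voom, leaving out each tumor, and the replicate number as a block.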

Additional observations from a re-analysis of the deposited data

Results flagged for a closer look

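Among 228 sets of 6 libraries (50 genes and 7 ratios in 4 tumors), 11 held a library whose distance to the nearest other was large for the range of its set by Dixon's criterion, where chance gives about 1 in 20. In APC-KO tumor 2, library 3 had 116 scaled CPM of Psmb7 (the others 89.5 to 98.998) and 98.8 of Psme4 (the others 79.1 to 85.1), and library 4 had 47.6 of Psmg1 (the others 28.8 to 33.5). In APC-KO tumor 1, library 2 had 108 of Psma4 (the others 117 to 121). In APC-WT tumor 1, library 3 had 83.8 of Psma3 (the others 73.7 to 77.4) and 75.4 of Psma5 (the others 63.4 to 66.047), and library 5 had 38.4 of Psmd9 (the others 31.7 to 33.7). In APC-WT tumor 2, library 2 had 75.1 of Psmd5 (the others 70.4 to 71.3) and library 6 had 15.01 of Psmg2 (the others 11.7 to 12.5). The Psme1 to Psme3 ratio was 1.44 in library 4 of APC-WT tumor 2 (the others 1.25 to 1.32), and Psme1 and Psme2 to the 7 alpha genes stood at 0.595 in library 3 of APC-KO tumor 1 (the others 0.535 to 0.549).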

How the results depend on the processing

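The count of members higher and lower in APC-KO (17 and 7) was 16 and 6 with length and GC content, 18 and 6 with the background subtracted, 17 and 7 with DESeq2's size factors, which the offset absorbs, 18 and 8 with DESeq2 (background 58.0%) and 16 and 7 with limma-voom (49.1%). It was 31 and 3 without an offset, 9 and 5 with the principal isoform (chosen after seeing the data), 12 and 12 with limits of 5, and 0 and 0 over all genes by edgeR (44 of 50 at an unadjusted p under 0.05). The last fit called 0 of all 53705 genes tested. With each tumor left out in turn it ranged from 8 to 15 higher and from 1 to 6 lower. Median shifts over all shared genes were -0.18, 0.10, -0.44 and -4.18 log2 with no offset, the principal isoform, limits of 5 and all genes. Over all genes, 50 members were called between the APC-WT tumors (16 otherwise, background 73.6%) and 6 between the APC-KO tumors (14 otherwise, background 2.25%). With the replicate number as a block on 24 libraries, 23 and 14 members were called between genotypes (background 86.3%), 13 between the APC-WT (46.4%) and 14 between the APC-KO tumors (33.5%); same-numbered libraries had correlations from -0.45 to 0.68, over 0.1 in 8 of 36 pairs. Between the APC-WT tumors 4 of 6 numbers had 0.61 to 0.68 and the lowest had -0.34. Not every pair passes 0.1, and the numbers were not taken to pair libraries. Fits on libraries without the block count each as a replicate, so their p-values leave a part shared by same-numbered libraries out of account. The source of these correlations was not tested.

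After subtracting the background the log2 difference of ratios was 0.29 for Psmb10 to Psmb7, 2.02 for Psme1 to Psme3, 2.11 for Psme2 to Psme3 and 0.22 for Psme1 and Psme2 to the alpha genes. Without each tumor in turn, the raw count ratios kept their sign, at -0.51 to -0.38, -0.93 to -0.74, 0.077 to 0.18, 1.79 to 1.87 and 1.78 to 2.06 for the 5 pairs in the order of the text, -0.53 to -0.34 for the beta sums and 0.15 to 0.19 for PA28 to the alpha genes. Length is not accounted for in these values. With the longest-transcript offset the 3 beta pairs had the other sign (0.56, 0.58 and -0.88), and the sums were not fitted with an offset.

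The sign of the change turned without an offset for Psme2 0.99, Psmb5 1.15, Psma4 0.42, Psmb2 0.30, Psmc1 0.31, Psmd14 0.040, Psmd10 0.20, Psme2b 0.76, Psma1 0.39, Psma5 0.66, Psma6 0.70, Psmd3 -0.10, Psmd6 0.43, Irf2 -0.16 and Ubb 0.037. With the principal isoform it turned for Psmb9 -0.15, Psme1 -0.0036, Psmb6 -0.041, Psmb3 -0.17, Psmc4 -0.19 and Psmd1 0.083. With limits of 5 it turned for Psmb6 -0.10, Psmc5 -0.15, Psmc4 -0.23, Psmc6 -0.31, Psmd12 -0.16, Psmd3 -0.27 and Irf2 -0.13. Over all genes it turned for Psmb8 -3.30, Psmb9 -3.57, Psmb10 -2.94, Psme1 -3.15, Psmb6 -2.69, Psmb7 -3.08, Psma3 -3.07, Psma2 -3.29, Psma7 -2.71, Psmb1 -3.01, Psmc2 -3.58, Psmc3 -3.25, Psmc5 -3.19, Psmd11 -3.21, Psmd13 -3.10, Psmd4 -2.97, Psmg1 -2.70, Pomp -2.27, Sem1 -2.23, Adrm1 -3.48, Uchl5 -3.35, Rps27a -1.83, Psmb3 -2.80, Psmb4 -2.66, Psmc4 -3.66, Psmc6 -3.997, Psmd12 -3.65, Psmd3 -4.06, Psmd7 -3.02, Psmd8 -3.28 and Irf2 -4.16. Without each tumor in turn it turned for Psma5 (range -0.31 to 0.0010; positive without APC-WT tumor 1) and Psmd1 (range -0.063 to 0.0041; positive without APC-WT tumor 1, at 0.0028, and without APC-KO tumor 1). The cause was not tested.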

Other observations

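Psmb5 (ENSMUSG00000022193, chromosome 14, 54614119 to 54618022, minus strand) has the thymus-specific Psmb11 (ENSMUSG00000072423, chromosome 14, 54621433 to 54629556, plus strand) as a neighbour on the same chromosome. Psmb11 read 1.03 ± 0.204, 5.82 ± 1.07, 62.7 ± 9.20 and 61.9 ± 8.09 scaled CPM (SD, n = 6 libraries), above an expected background of 0.369, 2.65, 18.8 and 18.9 in each tumor. The meiotic Psmc3ip read 3.79 ± 0.431, 4.13 ± 0.441, 21.7 ± 5.53 and 25.3 ± 4.67 against 0.140, 1.01, 7.14 and 7.19. Both values were higher in APC-KO libraries, as was the background, and neither gene was tested.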
